A study of Schizosaccharomyces pombe with 9 samples.

Results

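Fission yeast genes of intermediate expression that were low under both glucose and nitrogen starvation in wild-type cells are described here. A gene was taken when its level in wild-type cells in glucose rich medium lay from 50 to 500 TPM and when its levels under glucose starvation and under nitrogen starvation were each at most 0.4 times that value. TPM is a read count divided by the length of the feature and scaled to the same total in every library. The members were thus chosen by the values of the 3 wild-type libraries. The rule took 145 of the 5323 features in the table, all of them protein coding. Messenger RNA had been sequenced from Schizosaccharomyces pombe after 2 h in one of 3 media, with 1 library for each strain and medium and 9 libraries in all. By their labels, tup11∆/tup12∆/php5∆ cultures lack the corepressors Tup11 and Tup12 and the Php5 subunit of the CCAAT-binding complex, tup11∆/tup12∆ cultures lack the 2 corepressors, and wild-type cells carry all 3 genes. The starvation media were yeast extract with little glucose and with glycerol, and minimal medium with glucose and no nitrogen source but with required amino acids. The reference medium was yeast extract with high glucose, so nitrogen starvation also differs from it in the basal medium. The study's strain list gives tup11 and tup12 as interrupted by ura4 and php5 by a kanamycin cassette. Auxotrophic markers in ade6, leu1 and ura4 differ between the listed strains, and which of them was sequenced is not given in the sources used here.

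Making a ribosome starts in the nucleolus, where RNA polymerase I transcribes the long precursor of the ribosomal RNAs. Many assembly factors, among them helicases, GTPases, methyltransferases and small nucleolar ribonucleoproteins, then fold, cut, modify and export the precursors of the small and the large subunit. Yeasts that run out of carbon or nitrogen lower the mRNAs of these factors together with those of ribosomal proteins, a response well known from budding and fission yeast. Tup11 and Tup12 are the fission yeast relatives of budding yeast Tup1, which represses many stress and metabolic genes, and Php5 belongs to a complex that binds the sequence CCAAT.

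Of the 145 genes, 77 (53.1%) fell into classes of ribosome assembly, against 7.01% of all 2026 features with 50 to 500 TPM in wild-type cells in glucose rich medium. With 11 further assembly factors, recognised by their products after the values had been seen, the number was 88 (60.7%, against 7.55%). All 11 are among the 145 genes, and none was added from the other features at this level. The rise in share therefore follows from that choice. The classes were written with earlier results of these data known, so the shares describe the list. The large-subunit class held 38 of the 145 genes and the small-subunit class 24. General assembly factors numbered 13, and nop56 and naf1 were the members of the box C/D and box H/ACA classes. Outside assembly stood 3 subunits of RNA polymerase I, the shared polymerase subunits rpc40, rpc19, rpc10 and rpb8, 6 enzymes of nucleotide synthesis, 5 genes of the amino acid class, 4 of tRNA charging or modification, and 4 chaperones. No gene came from the mitochondrial class (0 of 111 features at this level), from the cell wall class (0 of 49) or from translation factors (0 of 32). For scale, the rule took 145 of all 2026 features at this level, and 57 of the 145 were not assembly factors. Each gene was put only in the first class that matched it. Thus ura3, a mitochondrial enzyme, counted under nucleotide synthesis, and rli1, which recycles ribosomes, under other metabolic enzymes.

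The promoters of the 145 genes shared an A/T-rich palindrome more often than other promoters did. Windows of 250 bases before to 50 bases after the annotated transcript start, from RefSeq on build ASM294v3, were searched on both strands. AAATTT, which reads the same on both strands, stood in 101 of 145 windows (69.7%), against 44.9% of all 5112 windows and 44.3% of the windows of the other features at 50 to 500 TPM. The longer AAAATTTT, which contains it, stood in 30 of 145 windows (20.7%), against 7.81% of all windows. AAATTT was found by ranking every 6-letter word by the difference in share, in which it came first of 2090. The shares are therefore a description of these promoters. Among 8-letter words ranked alike, AAAATTTT came at rank 3 of 32781. Above it stood AAAAATTT, in 31.03% against 15.02% of all windows, and AAATTTTA, in 24.14% against 10.27%. Both contain AAATTT and neither is a palindrome. AAAATTT came first of the 7-letter words, at 54.48% against 29.68%, so the surplus was not limited to palindromes. Windows of the 145 genes had a median A/T content of 68.7%, against 67.0% over all windows. Other orders of the same letters differed less from all windows: TTTAAA stood in 49.0% of the windows against 39.9% of all, AATATT in 37.9% against 33.5%, and ATATAT in 24.1% against 27.9%. Of the 8-letter words, TTTTAAAA stood in 15.2% against 8.59%. Within the list both palindromes were less frequent in the 88 assembly genes than in the 57 others, with AAATTT in 63.6% and 78.9% of the windows and AAAATTTT in 13.6% and 31.6%.

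In 12 of the 145 promoters the 8-letter word lay within the 100 bases before the start. The share of all promoters with the word there was not counted. The 6 of the 12 whose wild-type levels fell furthest are printed here. They belong to helicase and methyltransferase genes of the large subunit and to metabolic enzymes. The capitals mark AAAATTTT, and each line gives 120 bases, 5′ to 3′ in the direction of transcription, from dbp2 (chrII:3665359-3665478, minus strand), nop2 (chrII:3676625-3676744, minus strand), cts1 (chrI:1213511-1213630, minus strand), mmd1 (chrI:4635342-4635461, plus strand), dfr1 (chrIII:1855175-1855294, plus strand) and mta1 (chrI:793790-793909, minus strand). All but that of mmd1 end at the base before the annotated start.
dbp2: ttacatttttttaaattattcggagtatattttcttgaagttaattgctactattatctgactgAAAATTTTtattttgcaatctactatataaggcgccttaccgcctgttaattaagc
nop2: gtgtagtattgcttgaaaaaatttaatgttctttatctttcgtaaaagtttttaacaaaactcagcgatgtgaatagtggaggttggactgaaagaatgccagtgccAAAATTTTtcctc
cts1: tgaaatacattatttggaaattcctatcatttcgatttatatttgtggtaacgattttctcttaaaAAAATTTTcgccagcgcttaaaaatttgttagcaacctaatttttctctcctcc
mmd1: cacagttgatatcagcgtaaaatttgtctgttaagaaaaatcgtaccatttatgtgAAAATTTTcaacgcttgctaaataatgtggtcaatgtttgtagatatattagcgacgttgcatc
dfr1: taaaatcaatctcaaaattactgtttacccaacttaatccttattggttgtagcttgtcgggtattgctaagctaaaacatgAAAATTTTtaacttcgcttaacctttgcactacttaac
mta1: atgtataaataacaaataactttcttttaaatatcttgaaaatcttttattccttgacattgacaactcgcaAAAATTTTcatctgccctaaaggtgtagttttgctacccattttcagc
Counted from the start, the marked word began at position -13 in nop2 and at position -77 in mmd1, with the other 4 genes in between. AAATTT began between positions -50 and -26, counted from the transcript start, in 15.9% of the 145 promoters, against 3.88% of the other promoters at this expression level. For the 25 bases next to the start the shares were 13.8% and 4.2%. In the 25 bases farthest upstream they were 6.9% and 5.95%, so the surplus lay mainly near the start.

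**Figure D1:**
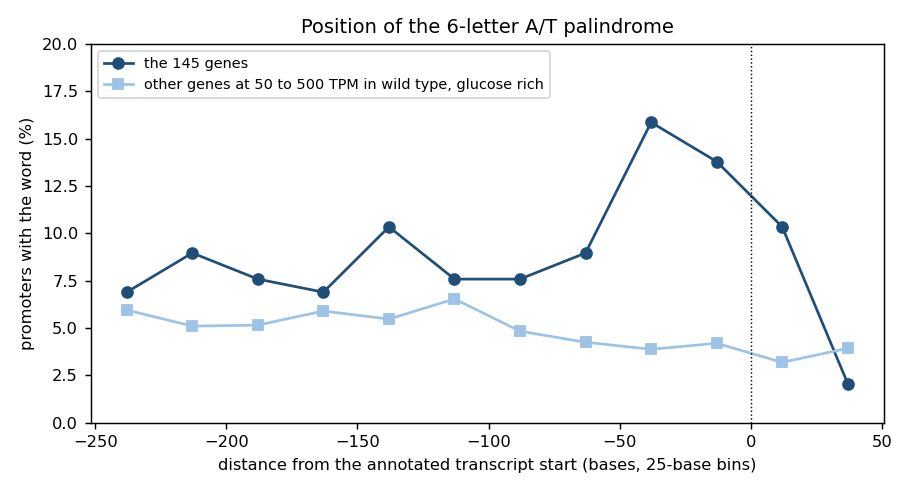
Share of promoters (%) in which the 6-letter A/T palindrome starts within each 25-base bin, by distance from the annotated transcript start in bases, for the 145 genes and for the other features with 50 to 500 TPM in wild-type cells in glucose rich medium. The 145 genes peak at 15.9% between positions -50 and -26, where the others have 3.88%; the last bin is shortened by the end of the window.

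Motifs of other promoter classes were also counted. CAGTCAC, the first 7 bases of the HomolD box of ribosomal protein genes, stood in 5.52% of the 145 windows, against 4.71% of all and 2.18% of the other windows at 50 to 500 TPM. ACCCTAC, the first 7 bases of HomolE, stood in 4.14% against 2.66% of all. For CCAAT the shares were 43.4% against 42.2%, for the stress element core TGACGT 5.52% against 5.91%, and for the cell cycle element ACGCGT 1.38% against 3.25%. CCCCTC stood in 2.07% against 2.11%, and CCCCGC in 0 of 145 windows against 1.10%. A match or its absence says nothing of whether a factor binds there.

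Before the levels are compared, the targeted genes give a check of the labels. tup11 stood at no more than 0.42 TPM in the 6 mutant libraries, against 41.9 to 67.4 TPM in wild-type cells. tup12 stood at 54.5 to 117 TPM in the 6 libraries that are labelled as lacking it, against 107 to 157 TPM in wild-type cells, so the libraries are called by their labels throughout. php5 stood at 8.92 to 30.2 TPM in the 3 samples labelled tup11∆/tup12∆/php5∆, against 61.6 to 126 TPM in the other 6. The libraries held 36652045 to 54303622 reads, and the smallest number of reads behind any value of the 145 genes was 120. The 10 most abundant features took 7.54% to 18.2% of a library, with the largest shares in the glucose-starved samples of both mutant strains. isp6, a vacuolar protease of nitrogen-starved cells, stood at 1011 TPM under glucose starvation and 1605 TPM under nitrogen starvation, against 61.2 TPM in glucose rich medium, in wild-type cells. It was thus high in both starved libraries. isp7 was highest under nitrogen starvation there, at 1203 TPM, against 297 TPM under glucose starvation and 68.9 TPM in glucose rich medium. The mating and meiosis genes ste11, mei2, mam2 and fus1 differed less between the 2 starved wild-type libraries. Under glucose and nitrogen starvation ste11 had 33.0 and 31.5 TPM, mei2 29.7 and 24.9, mam2 28.9 and 33.9, and fus1 8.99 and 7.17. In glucose rich medium they had 9.86, 1.64, 25.6 and 4.85 TPM in the same order, so mam2 changed little. In wild-type cells fbp1, the glucose-repressed fructose bisphosphatase, stood at 597 TPM under glucose starvation and 21 TPM under nitrogen starvation, against 5.11 TPM in glucose rich medium. There ght3 had 1529 and 28.15 TPM under glucose and nitrogen starvation, against 2.33 TPM, and mug14 had 5893 and 262 TPM, against 8.70 TPM. These genes of glucose starvation were thus also above their glucose rich level under nitrogen starvation.

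With 1 library per strain and medium no difference could be tested against replicate error. Intervals given after a ratio are exact 95% intervals from the read counts and cover counting error only. TPM are shares of the polyadenylated RNA, so less mRNA per cell from one gene and more from others cannot be told apart, nor can fewer cells and less RNA per cell. Another annotated gene, mostly noncoding and on the opposite strand, overlapped part of the coding sequence of 118 of the 145 genes and the whole of it in 29. The share of all features with such overlaps was not counted. The part of such overlaps in these counts without strand was not tested.

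The wild-type values chose the genes and are given as description. The median level was 38.2 TPM under glucose starvation and 33.1 TPM under nitrogen starvation, against 126 TPM in glucose rich medium. Together the genes took 0.679% and 0.622% of all TPM in those starved libraries, against 2.44% in glucose rich medium. Of the 2026 features at this level, 197 met the limit under glucose starvation and 207 under nitrogen starvation, so 52 met the first limit alone (2.76% of the features outside the list) and 62 the second alone (3.3%). Across all expressed features, 6.14% were at or below a ratio of 0.4 under glucose starvation, 7.9% under nitrogen starvation and 3.97% under both. Just inside the ratio limit were nop14 (larger ratio 0.3997), mge1 (0.3990) and SPAC22E12.18 (0.3989), and just outside it hgh1 (0.401), elp2 (0.403) and the polymerase I subunit gene rpa2 (0.404). At the lower level limit rrp1402 (54.4 TPM) and nop14 (54.6 TPM) were the nearest inside, and ceo5 (49.7 TPM), utp25 (46.8 TPM) and the helicase gene mak5 (45.2 TPM) the nearest outside. At the upper limit ilv3 (497 TPM) stood inside, and wis2 (503 TPM) and gua2 (509 TPM) outside. A further 26 features below 50 TPM and 40 above 500 TPM met both ratio limits.

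The fall under starvation was also present in the 6 mutant libraries, which had no part in the choice. In the libraries labelled tup11∆/tup12∆/php5∆, 125 of the 145 genes (86.2%) were at or below 0.4 times their own glucose rich level under glucose starvation, where 26.4% of all expressed features and 24.8% of the other features at 50 to 500 TPM were. Under nitrogen starvation 43 of 145 (29.7%) were, against 4.09% and 0.638%, and 93 were at or below 0.5. In those labelled tup11∆/tup12∆, 122 of 145 (84.1%) were under glucose starvation, against 8.15% and 5.42%, and 117 of 145 (80.7%) under nitrogen starvation, against 7.31% and 2.39%. Both starvations together left 41 genes at or below 0.4 in the libraries labelled tup11∆/tup12∆/php5∆ (2.5% of all features, 0.532% of the others at 50 to 500 TPM) and 107 in those labelled tup11∆/tup12∆ (5.1% and 1.17%). These counts move with the scaling. Labelled tup11∆/tup12∆/php5∆, they were 69 under glucose starvation and 84 under nitrogen starvation with median-of-ratios size factors, 100 and 92 with a common upper quartile, and 122 and 36 without the 10 most abundant features. Labelled tup11∆/tup12∆, they were 134 and 140, 138 and 140, and 110 and 108 in the same settings. The count was higher under nitrogen starvation with size factors in both strains and with the upper quartile labelled tup11∆/tup12∆, and lower in the other scalings named.

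**Figure D2:**
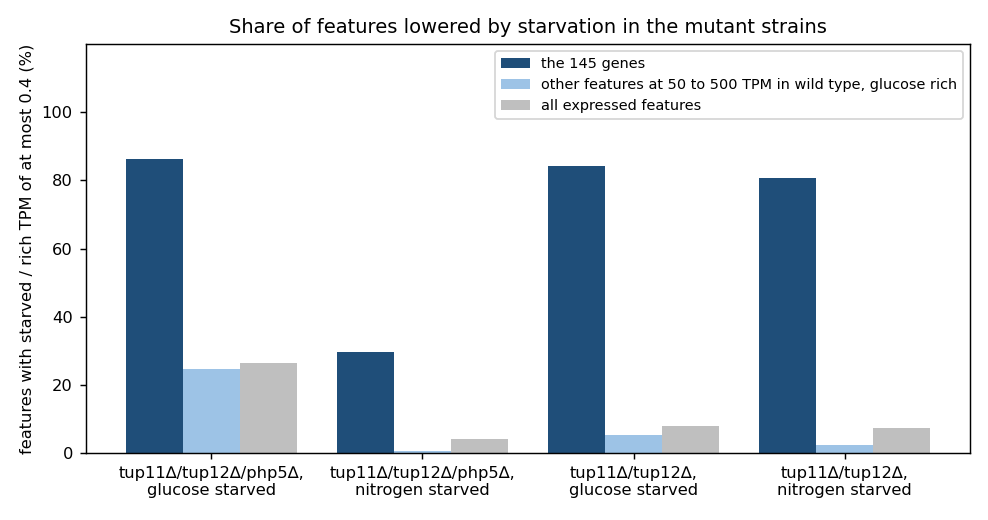
Share of features (%) whose starved to glucose rich TPM ratio was at most 0.4, by labelled strain and starvation, for the 145 genes, for the other features with 50 to 500 TPM in wild-type cells in glucose rich medium and for all expressed features. The 145 genes lie at 86.2%, 29.7%, 84.1% and 80.7% from left to right, all above both backgrounds; with size factors 69 and 84 of 145 genes would be counted in the first 2 groups.

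Set against the shift of the whole library, the fall was smaller in the libraries labelled tup11∆/tup12∆/php5∆ than in those labelled tup11∆/tup12∆, for either starvation. Log2 medians over all features are of TPM plus 1. The median log2 ratio of the 145 genes labelled tup11∆/tup12∆/php5∆ was -1.97 under glucose starvation, against -0.66 over all expressed features, and -1.13 under nitrogen starvation, against 0.26 over all. Labelled tup11∆/tup12∆ it was -1.77 under glucose starvation, against 0.18 over all, and -1.68 under nitrogen starvation, against 0.54 over all. The distance to the all-feature median was therefore -1.31 and -1.39 in the libraries labelled tup11∆/tup12∆/php5∆ under glucose and nitrogen starvation, and -1.94 and -2.22 in those labelled tup11∆/tup12∆. Under each of 3 other scalings these distances moved by at most 0.033.

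Single genes shifted together between the mutants under nitrogen starvation. The nitrogen starvation ratio was higher in the libraries labelled tup11∆/tup12∆/php5∆ than in those labelled tup11∆/tup12∆ for 141 of 145 genes, against 27.1% of all features, with a median difference of 0.61 on the log2 scale against -0.27 over all. At or below 0.4 under nitrogen starvation in both mutants were 41 genes, 2 were so labelled tup11∆/tup12∆/php5∆ alone, 76 labelled tup11∆/tup12∆ alone, and 26 in neither. Over all features, 4.09% were at or below 0.4 labelled tup11∆/tup12∆/php5∆ and 7.31% labelled tup11∆/tup12∆. The joint shares over all features were not counted. The levels differed in both media, since 113 genes were higher under nitrogen starvation and at the same time lower in glucose rich medium in the libraries labelled tup11∆/tup12∆/php5∆ than in those labelled tup11∆/tup12∆. The share of all features with that joint pattern was not counted. Under glucose starvation the ratio was higher labelled tup11∆/tup12∆/php5∆ for 50 of 145 genes, against 17.9% of all features.

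**Figure D3:**
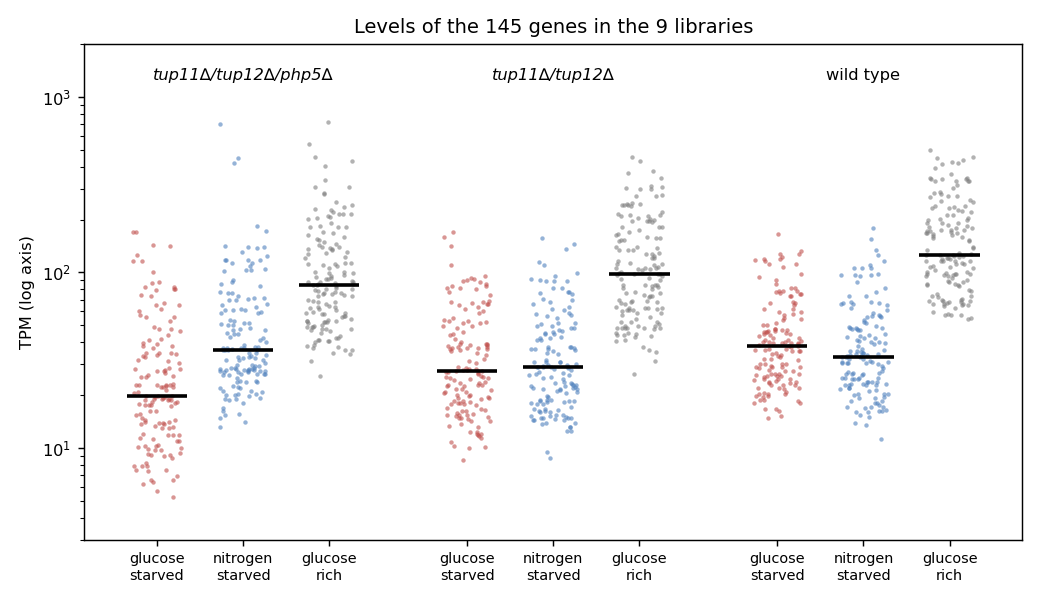
Levels (TPM, log axis) of the 145 genes in the 9 libraries, 1 point per gene, with the median as a black bar, by labelled strain and medium. The medians are 19.8, 36.3 and 84.5 TPM for tup11∆/tup12∆/php5∆, 27.4, 28.8 and 98.5 TPM for tup11∆/tup12∆, and 38.2, 33.1 and 126 TPM for wild-type cells, from left to right.

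The glucose-starved library labelled tup11∆/tup12∆/php5∆ held the lowest level of 88 of the 145 genes, and wild-type cells in glucose rich medium the highest of 132. Shares over all features for these counts were not taken. That glucose-starved library was low for most features. Its median log2 ratio to glucose-starved wild-type cells was -0.93 over all features, against -0.85 for the 145 genes. As a share of all TPM the genes took 0.472% under glucose starvation and 0.863% under nitrogen starvation, against 1.72% in glucose rich medium, in the libraries labelled tup11∆/tup12∆/php5∆. Labelled tup11∆/tup12∆ they took 0.551% and 0.554%, against 1.85%. The rule required a high wild-type level in glucose rich medium relative to the starved ones, so the place of the wild-type glucose rich library at the top partly follows from the choice. Of the 4 mutant starvation ratios, all 4 were at or below 0.4 for 38 genes, 3 for 62, 2 for 29, 1 for 11 and none for 5. This tally was not made over all features.

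The large-subunit assembly genes made up the largest class. They had a median of 20.3 TPM under glucose starvation and 34.7 TPM under nitrogen starvation, against 92.5 TPM in glucose rich medium, in the libraries labelled tup11∆/tup12∆/php5∆. Labelled tup11∆/tup12∆, the medians were 24.3 and 27.6 TPM in the starved libraries, against 108 TPM. At or below 0.4 labelled tup11∆/tup12∆/php5∆ were 33 of the 38 genes under glucose starvation and 13 under nitrogen starvation, and labelled tup11∆/tup12∆ 36 and 34. The class held the GTPase genes nog1 and nog2, the export adaptor gene nmd3, rpf2 and rrs1, whose budding yeast products bring in the 5S ribonucleoprotein, and erb1 and ytm1, whose products form a complex in budding yeast. Of the 65 genes listed, 51 lay at 50 to 500 TPM in wild-type cells in glucose rich medium, and 38 of the 51 met the rule.

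Dbp3 is a DEAD-box helicase that acts on the precursor of the large-subunit RNAs in budding yeast. dbp3 had 9.4 TPM under glucose starvation and 25 TPM under nitrogen starvation, against 111 TPM in glucose rich medium, in the samples labelled tup11∆/tup12∆/php5∆. dbp3 in those labelled tup11∆/tup12∆ had 15.2 TPM under glucose starvation and 18.3 TPM under nitrogen starvation, against 156 TPM in glucose rich medium. Wild-type cells had 30.2 TPM under glucose starvation and 27.5 TPM under nitrogen starvation, against 271 TPM in glucose rich medium. All 6 starved libraries lay far below all 3 glucose rich libraries, which the rule fixed in advance for the wild-type ones. The share of all features with such a separation was not counted. The starved to rich ratios were 0.0846 (interval 0.0791 to 0.0903) and 0.225 (interval 0.214 to 0.237) labelled tup11∆/tup12∆/php5∆. Labelled tup11∆/tup12∆ they were 0.0975 (interval 0.0921 to 0.103) and 0.117 (interval 0.11 to 0.124).

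Dbp2, a second helicase of this family, whose promoter is printed above, followed the same pattern. dbp2 had 13.7 TPM under glucose starvation and 29.5 TPM under nitrogen starvation, against 162 TPM in glucose rich medium, in the samples labelled tup11∆/tup12∆/php5∆. dbp2 in those labelled tup11∆/tup12∆ had 19.3 TPM under glucose starvation and 30.9 TPM under nitrogen starvation, against 196 TPM in glucose rich medium. Wild-type cells had 42.5 TPM under glucose starvation and 47.1 TPM under nitrogen starvation, against 303 TPM in glucose rich medium. Its nitrogen starvation ratios, 0.182 (interval 0.173 to 0.19) labelled tup11∆/tup12∆/php5∆ and 0.158 (interval 0.151 to 0.166) labelled tup11∆/tup12∆, were closer to each other than those of dbp3.

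Nop2 methylates the large-subunit RNA in budding yeast. nop2 had 19.4 TPM under glucose starvation and 27.5 TPM under nitrogen starvation, against 84.5 TPM in glucose rich medium, in the samples labelled tup11∆/tup12∆/php5∆. nop2 in those labelled tup11∆/tup12∆ had 15.4 TPM under glucose starvation and 18.8 TPM under nitrogen starvation, against 105 TPM in glucose rich medium. Wild-type cells had 26.4 TPM under glucose starvation and 23.9 TPM under nitrogen starvation, against 164 TPM in glucose rich medium. The starved libraries again did not overlap with the glucose rich ones, which the rule fixed in advance for the wild-type ones. The level labelled tup11∆/tup12∆/php5∆ exceeded that labelled tup11∆/tup12∆ in both starvations.

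The gene with the highest wild-type level in the class was mrt4, whose budding yeast product holds the place of a stalk protein on the large-subunit precursor. mrt4 had 169.6 TPM under glucose starvation and 139 TPM under nitrogen starvation, against 308 TPM in glucose rich medium, in the samples labelled tup11∆/tup12∆/php5∆. mrt4 in those labelled tup11∆/tup12∆ had 95.8 TPM under glucose starvation and 99.1 TPM under nitrogen starvation, against 370.2 TPM in glucose rich medium. Wild-type cells had 112 TPM under glucose starvation and 155 TPM under nitrogen starvation, against 448 TPM in glucose rich medium. The glucose-starved level labelled tup11∆/tup12∆/php5∆ was the highest of its 6 starved levels, and the ratio there, 0.551 (interval 0.536 to 0.567), was above the limit of 0.4.

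Rlp7, a relative of ribosomal protein L7 that sits on the same precursor, was the only assembly factor among the 8 genes with at least 2-fold higher nitrogen-starved levels labelled tup11∆/tup12∆/php5∆ than labelled tup11∆/tup12∆. rlp7 had 116 TPM under glucose starvation and 139 TPM under nitrogen starvation, against 433 TPM in glucose rich medium, in the samples labelled tup11∆/tup12∆/php5∆. rlp7 in those labelled tup11∆/tup12∆ had 89.2 TPM under glucose starvation and 61.6 TPM under nitrogen starvation, against 455 TPM in glucose rich medium. Wild-type cells had 118 TPM under glucose starvation and 111 TPM under nitrogen starvation, against 436 TPM in glucose rich medium. Its glucose rich levels lay close together in all 3 strains, while the nitrogen-starved level was 2.25 (interval 2.13 to 2.38) times as high labelled tup11∆/tup12∆/php5∆ as labelled tup11∆/tup12∆.

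Small-subunit assembly genes behaved alike at lower levels. Their median was 14.9 TPM under glucose starvation and 26.1 TPM under nitrogen starvation, against 60.9 TPM in glucose rich medium, in the libraries labelled tup11∆/tup12∆/php5∆. Labelled tup11∆/tup12∆, it was 21.5 and 17.2 TPM in the starved libraries, against 67.0 TPM. All 24 genes were at or below 0.4 labelled tup11∆/tup12∆/php5∆ under glucose starvation and 8 under nitrogen starvation, and labelled tup11∆/tup12∆ the counts were 22 and 21. The class included imp3, imp4, utp4, utp6, utp7 and utp18, whose products belong to the processome that forms on the nascent precursor, the endonuclease gene nob1, which in budding yeast makes the end of the mature small-subunit RNA, and the kinase gene rio2. Of 59 genes listed, 51 lay at 50 to 500 TPM and 24 met the rule, while 12 met it for nitrogen starvation alone and 3 for glucose starvation alone.

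Mis3 is the relative of a budding yeast processome protein. mis3 had 14.4 TPM under glucose starvation and 27.8 TPM under nitrogen starvation, against 100.4 TPM in glucose rich medium, in the samples labelled tup11∆/tup12∆/php5∆. mis3 in those labelled tup11∆/tup12∆ had 19.9 TPM under glucose starvation and 16.8 TPM under nitrogen starvation, against 111 TPM in glucose rich medium. Wild-type cells had 28.8 TPM under glucose starvation and 20 TPM under nitrogen starvation, against 168 TPM in glucose rich medium. Its nitrogen starvation ratio was 0.277 (interval 0.26 to 0.295) labelled tup11∆/tup12∆/php5∆, against 0.151 (interval 0.139 to 0.164) labelled tup11∆/tup12∆.

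Nat10, which acetylates cytidines of ribosomal and transfer RNA, had the lowest wild-type nitrogen-starved level of the 145 genes. nat10 had 8.22 TPM under glucose starvation and 16.9 TPM under nitrogen starvation, against 40.6 TPM in glucose rich medium, in the samples labelled tup11∆/tup12∆/php5∆. nat10 in those labelled tup11∆/tup12∆ had 8.51 TPM under glucose starvation and 9.48 TPM under nitrogen starvation, against 44.8 TPM in glucose rich medium. Wild-type cells had 14.9 TPM under glucose starvation and 11.2 TPM under nitrogen starvation, against 73.8 TPM in glucose rich medium. The nitrogen-starved level labelled tup11∆/tup12∆/php5∆ was the highest of its 6 starved levels.

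General assembly factors included wdr74, pxr1 and llp1. At or below 0.4 labelled tup11∆/tup12∆/php5∆ were 12 of these 13 genes under glucose starvation and 4 under nitrogen starvation, and labelled tup11∆/tup12∆ 12 and 11. Wdr74, a WD-repeat protein, had ratios of 0.132 and 0.346 for glucose and nitrogen starvation labelled tup11∆/tup12∆/php5∆ and of 0.165 and 0.24 labelled tup11∆/tup12∆. Nop56, a core protein of the box C/D particles that guide methylation, stood at 80.8 TPM under glucose starvation and 118 TPM under nitrogen starvation labelled tup11∆/tup12∆/php5∆, against 252 TPM in glucose rich medium. Naf1, which helps to build the box H/ACA particles that guide pseudouridylation, had ratios between 0.308 and 0.743 over the 4 mutant comparisons. Both snoRNP genes were thus lower in every starved library than in the glucose rich library of the same strain. For wild-type cells the rule required this.

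RNA polymerase I, which makes the precursor itself, was represented by rpa49, rpa43 and ker1. Of the 8 polymerase I genes at this level these 3 met the rule, and rpa2 stood just outside. Ker1 departed from the others in a single library. ker1 had 56.9 TPM under glucose starvation and 63.6 TPM under nitrogen starvation, against 158 TPM in glucose rich medium, in the samples labelled tup11∆/tup12∆/php5∆. ker1 in those labelled tup11∆/tup12∆ had 160.0 TPM under glucose starvation and 47 TPM under nitrogen starvation, against 164 TPM in glucose rich medium. Wild-type cells had 73.7 TPM under glucose starvation and 40.3 TPM under nitrogen starvation, against 222 TPM in glucose rich medium. The glucose-starved library labelled tup11∆/tup12∆ lay at 0.977 (interval 0.936 to 1.02) of its glucose rich level, while the other mutant starvation ratios of the gene were 0.402 or lower. The whole coding sequence of ker1 overlaps a noncoding RNA gene on the opposite strand, and the libraries do not keep the strand. Of the shared subunit genes, rpc40, rpc19 and rpc10 had ratios from 0.23 to 0.484 over the 4 mutant comparisons, with the lowest value for rpc40 under nitrogen starvation labelled tup11∆/tup12∆ and the highest for rpc10 under nitrogen starvation labelled tup11∆/tup12∆/php5∆.

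Nucleotide synthesis contributed ura1, ura3 and ura5 of the pyrimidine pathway, the CTP synthase gene cts1, ade9 of the folate-linked pathway and the dihydrofolate reductase gene dfr1. Under glucose starvation 5 were at or below 0.4 labelled tup11∆/tup12∆/php5∆ and all 6 labelled tup11∆/tup12∆. Under nitrogen starvation 2 were labelled tup11∆/tup12∆/php5∆ and 5 labelled tup11∆/tup12∆. ura3 had 52.8 TPM under glucose starvation and 60.8 TPM under nitrogen starvation, against 216 TPM in glucose rich medium, in the samples labelled tup11∆/tup12∆/php5∆. ura3 in those labelled tup11∆/tup12∆ had 36.9 TPM under glucose starvation and 34.7 TPM under nitrogen starvation, against 272 TPM in glucose rich medium. Wild-type cells had 78.2 TPM under glucose starvation and 52.3 TPM under nitrogen starvation, against 454 TPM in glucose rich medium. These values of ura3, the dihydroorotate dehydrogenase gene, gave nitrogen starvation ratios of 0.281 (interval 0.271 to 0.292) labelled tup11∆/tup12∆/php5∆ and 0.127 (interval 0.121 to 0.134) labelled tup11∆/tup12∆. A noncoding RNA gene on the opposite strand covers the coding sequence of ura3 too.

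Dfr1 went against most of the list in its nitrogen-starved level, which was lower labelled tup11∆/tup12∆/php5∆ than labelled tup11∆/tup12∆. dfr1 had 13.9 TPM under glucose starvation and 32.4 TPM under nitrogen starvation, against 98.8 TPM in glucose rich medium, in the samples labelled tup11∆/tup12∆/php5∆. dfr1 in those labelled tup11∆/tup12∆ had 51.5 TPM under glucose starvation and 57.2 TPM under nitrogen starvation, against 246 TPM in glucose rich medium. Wild-type cells had 45.7 TPM under glucose starvation and 48.4 TPM under nitrogen starvation, against 174 TPM in glucose rich medium. The level labelled tup11∆/tup12∆/php5∆ was below that labelled tup11∆/tup12∆ in all 3 media, by a ratio of 0.402 (interval 0.392 to 0.413) in glucose rich medium. Adi1, of the methionine salvage pathway, was the only other gene at or below 0.5 times the level labelled tup11∆/tup12∆, at 0.489 (interval 0.461 to 0.518). Over all features 1.56% were at or below 0.5 and 4.72% at or above 2 in that comparison.

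Metabolic enzymes outside these pathways included mmd1, the deoxyhypusine hydroxylase that modifies a translation factor, and rli1, an iron-sulfur ATPase that recycles ribosomes. mmd1 had 16.2 TPM under glucose starvation and 41.3 TPM under nitrogen starvation, against 216 TPM in glucose rich medium, in the samples labelled tup11∆/tup12∆/php5∆. mmd1 in those labelled tup11∆/tup12∆ had 19.1 TPM under glucose starvation and 28.2 TPM under nitrogen starvation, against 124 TPM in glucose rich medium. Wild-type cells had 33.6 TPM under glucose starvation and 36.8 TPM under nitrogen starvation, against 179 TPM in glucose rich medium. Mmd1 thus had its highest level of the 9 libraries in glucose rich medium labelled tup11∆/tup12∆/php5∆, and the starved libraries stayed low, with ratios of 0.0753 (interval 0.0706 to 0.0803) and 0.192 (interval 0.182 to 0.202).

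The comparison of the libraries labelled tup11∆/tup12∆/php5∆ with those labelled tup11∆/tup12∆ singled out a few genes. Under nitrogen starvation 8 of 145 genes (5.52%) were at least 2-fold higher and 0 at least 2-fold lower labelled tup11∆/tup12∆/php5∆, against 4.09% and 3.31% of all features. Those 8 were erg31, met17, rpl3002, vht1, ser3, sir1, rlp7 and adh4. The whole list nevertheless lay higher, with a median log2 ratio of 0.44 against -0.10 over all features, and 130 of 145 genes above 1 against 39.6% of all. In glucose rich medium the median was -0.21, against 0.13 over all features, with sir1, erg31 and met17 at least 2-fold higher and dfr1 and adi1 at least 2-fold lower. Under glucose starvation 23 genes were at or below 0.5, against 34.5% of all features, and 3 at or above 2, against 5.64%. The median there was -0.40, against -0.62 over all, and turned to 0.27 with size factors and to 0.12 with a common upper quartile.

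**Figure D4:**
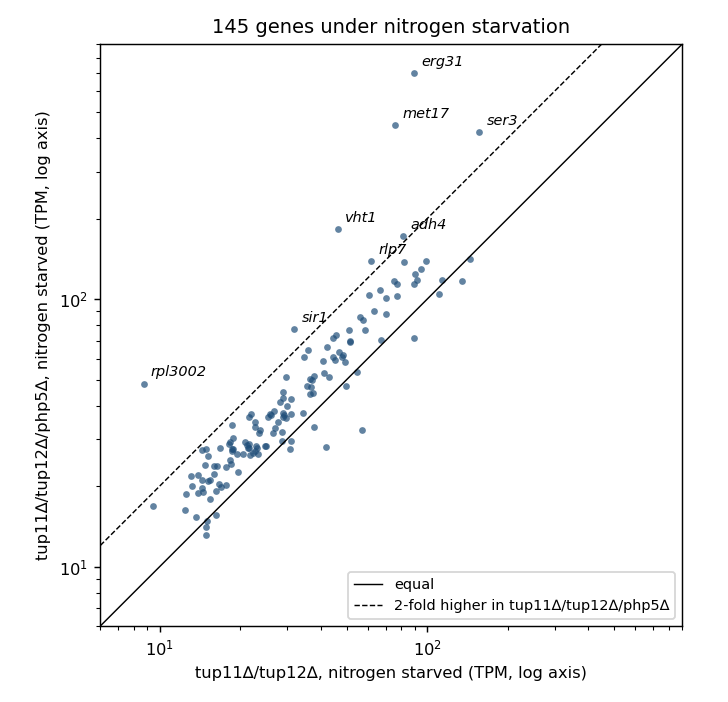
Level (TPM, log axes) of each of the 145 genes under nitrogen starvation, labelled tup11∆/tup12∆/php5∆ (vertical) against labelled tup11∆/tup12∆ (horizontal), with lines of equality and of a 2-fold higher level. Of the 145 points, 130 lie above equality and the 8 named genes on or above the 2-fold line, with erg31 at 701 against 89.1 TPM.

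Erg31 is a C-5 sterol desaturase of ergosterol synthesis. erg31 had 171 TPM under glucose starvation and 701 TPM under nitrogen starvation, against 538 TPM in glucose rich medium, in the samples labelled tup11∆/tup12∆/php5∆. erg31 in those labelled tup11∆/tup12∆ had 39.2 TPM under glucose starvation and 89.1 TPM under nitrogen starvation, against 133 TPM in glucose rich medium. Wild-type cells had 37.4 TPM under glucose starvation and 40.2 TPM under nitrogen starvation, against 106 TPM in glucose rich medium. All 3 libraries labelled tup11∆/tup12∆/php5∆ lay above their counterparts labelled tup11∆/tup12∆, by 4.36 (interval 4.15 to 4.58) under glucose starvation, 7.86 (interval 7.58 to 8.16) under nitrogen starvation and 4.03 (interval 3.93 to 4.13) in glucose rich medium. The nitrogen-starved level of erg31 was above the glucose rich one labelled tup11∆/tup12∆/php5∆, at a ratio of 1.3 (interval 1.28 to 1.32).

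Met17 makes homocysteine from sulfide. met17 had 55.6 TPM under glucose starvation and 448 TPM under nitrogen starvation, against 718 TPM in glucose rich medium, in the samples labelled tup11∆/tup12∆/php5∆. met17 in those labelled tup11∆/tup12∆ had 83.3 TPM under glucose starvation and 75.8 TPM under nitrogen starvation, against 196 TPM in glucose rich medium. Wild-type cells had 47.8 TPM under glucose starvation and 43.7 TPM under nitrogen starvation, against 175 TPM in glucose rich medium. Its nitrogen-starved and glucose rich levels labelled tup11∆/tup12∆/php5∆ exceeded every level in the other 6 samples, and the glucose-starved one did not. The nitrogen-starved level was 5.9 (interval 5.7 to 6.11) times that labelled tup11∆/tup12∆.

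Sir1, a subunit of sulfite reductase, supplies that sulfide. sir1 had 27.9 TPM under glucose starvation and 77.5 TPM under nitrogen starvation, against 279 TPM in glucose rich medium, in the samples labelled tup11∆/tup12∆/php5∆. sir1 in those labelled tup11∆/tup12∆ had 25.3 TPM under glucose starvation and 31.9 TPM under nitrogen starvation, against 61.1 TPM in glucose rich medium. Wild-type cells had 44.7 TPM under glucose starvation and 40.7 TPM under nitrogen starvation, against 116 TPM in glucose rich medium. Labelled tup11∆/tup12∆/php5∆, the glucose rich level was 4.57 (interval 4.5 to 4.65) times and the nitrogen-starved level 2.43 (interval 2.36 to 2.51) times that labelled tup11∆/tup12∆, while under glucose starvation the ratio was 1.1 (interval 1.07 to 1.14).

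Ser3 catalyses the first step of serine synthesis. ser3 had 143 TPM under glucose starvation and 421 TPM under nitrogen starvation, against 227 TPM in glucose rich medium, in the samples labelled tup11∆/tup12∆/php5∆. ser3 in those labelled tup11∆/tup12∆ had 83.7 TPM under glucose starvation and 157 TPM under nitrogen starvation, against 244 TPM in glucose rich medium. Wild-type cells had 76.8 TPM under glucose starvation and 106 TPM under nitrogen starvation, against 286 TPM in glucose rich medium. Only the libraries labelled tup11∆/tup12∆/php5∆ had more ser3 under nitrogen starvation than in glucose rich medium, at a ratio of 1.85 (interval 1.82 to 1.89), against 0.642 (interval 0.627 to 0.658) labelled tup11∆/tup12∆.

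Adh4, an alcohol dehydrogenase, showed the same change of direction. adh4 had 17.8 TPM under glucose starvation and 172 TPM under nitrogen starvation, against 88.9 TPM in glucose rich medium, in the samples labelled tup11∆/tup12∆/php5∆. adh4 in those labelled tup11∆/tup12∆ had 36.8 TPM under glucose starvation and 81.5 TPM under nitrogen starvation, against 151 TPM in glucose rich medium. Wild-type cells had 28.9 TPM under glucose starvation and 66.9 TPM under nitrogen starvation, against 205 TPM in glucose rich medium. The nitrogen starvation ratio was 1.93 (interval 1.87 to 2) labelled tup11∆/tup12∆/php5∆, against 0.539 (interval 0.519 to 0.56) labelled tup11∆/tup12∆, and noncoding RNA genes on the opposite strand overlap 90.8% of its coding sequence.

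Vht1 takes up biotin. vht1 had 65.3 TPM under glucose starvation and 183 TPM under nitrogen starvation, against 338 TPM in glucose rich medium, in the samples labelled tup11∆/tup12∆/php5∆. vht1 in those labelled tup11∆/tup12∆ had 63.5 TPM under glucose starvation and 46.3 TPM under nitrogen starvation, against 249 TPM in glucose rich medium. Wild-type cells had 127 TPM under glucose starvation and 56.4 TPM under nitrogen starvation, against 329.8 TPM in glucose rich medium. Its nitrogen-starved level was 3.95 (interval 3.79 to 4.1) times as high labelled tup11∆/tup12∆/php5∆ as labelled tup11∆/tup12∆.

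CCAAT stood in 6 of these 8 promoter windows, and was not found in those of vht1 and rlp7. The shares were 42.2% of all windows and 50.9% of those of the 57 listed genes outside assembly. Whether CCAAT goes with the higher levels was not tested. Because Php5 is a subunit of the complex that binds it, 3 of the windows are shown with CCAAT or its reverse complement ATTGG in capitals. They are stretches of 120 bases upstream of the start, from met17 (chrII:465173-465292, plus strand), sir1 (chrI:1206116-1206235, minus strand) and ser3 (chrIII:472455-472574, minus strand).
met17: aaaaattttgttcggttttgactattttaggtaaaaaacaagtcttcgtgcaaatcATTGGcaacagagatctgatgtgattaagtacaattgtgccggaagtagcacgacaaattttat
sir1: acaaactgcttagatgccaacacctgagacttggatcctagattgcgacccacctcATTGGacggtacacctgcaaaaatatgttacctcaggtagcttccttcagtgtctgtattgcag
ser3: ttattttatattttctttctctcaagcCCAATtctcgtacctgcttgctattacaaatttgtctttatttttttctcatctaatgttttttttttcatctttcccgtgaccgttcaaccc
The marked bases begin at position -151 in met17, -158 in sir1 and -223 in ser3, counted from the annotated start. Binding was not measured in these libraries.

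Rpl3002 encodes the ribosomal protein eL30 and was the only cytosolic ribosomal protein gene among the 145, of 3 at that level of expression. rpl3002 had 38.3 TPM under glucose starvation and 48.4 TPM under nitrogen starvation, against 402 TPM in glucose rich medium, in the samples labelled tup11∆/tup12∆/php5∆. rpl3002 in those labelled tup11∆/tup12∆ had 60.4 TPM under glucose starvation and 8.71 TPM under nitrogen starvation, against 432 TPM in glucose rich medium. Wild-type cells had 122 TPM under glucose starvation and 61.3 TPM under nitrogen starvation, against 342 TPM in glucose rich medium. A value of 8.71 TPM, from 120 reads, was the lowest of the gene, and made the ratio of 0.0202 (interval 0.0167 to 0.0241) under nitrogen starvation labelled tup11∆/tup12∆ the smallest of any gene in the 4 mutant comparisons. Genome annotation lists a second eL30 gene, so reads could be divided between the copies in a way that the table does not show.

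A different departure was seen in SPBC1685.17, an uncharacterised gene of which no overlapping gene is annotated. SPBC1685.17 had 101 TPM under glucose starvation and 90.1 TPM under nitrogen starvation, against 55.7 TPM in glucose rich medium, in the samples labelled tup11∆/tup12∆/php5∆. SPBC1685.17 in those labelled tup11∆/tup12∆ had 93.3 TPM under glucose starvation and 63.1 TPM under nitrogen starvation, against 47.5 TPM in glucose rich medium. Wild-type cells had 16.7 TPM under glucose starvation and 21.8 TPM under nitrogen starvation, against 69.1 TPM in glucose rich medium. Its starved levels were higher than the glucose rich level in all 4 mutant comparisons, with ratios of 1.82 (interval 1.67 to 1.98) and 1.62 (interval 1.47 to 1.78) labelled tup11∆/tup12∆/php5∆ and 1.96 (interval 1.79 to 2.15) and 1.33 (interval 1.19 to 1.48) labelled tup11∆/tup12∆, while both wild-type starved levels were low by the rule.

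Snp27, of the spliceosome, was higher under nitrogen starvation in both mutants. snp27 had 31.2 TPM under glucose starvation and 104 TPM under nitrogen starvation, against 76.8 TPM in glucose rich medium, in the samples labelled tup11∆/tup12∆/php5∆. snp27 in those labelled tup11∆/tup12∆ had 55.1 TPM under glucose starvation and 111 TPM under nitrogen starvation, against 62.2 TPM in glucose rich medium. Wild-type cells had 26.2 TPM under glucose starvation and 29.99 TPM under nitrogen starvation, against 88.2 TPM in glucose rich medium. The ratios under nitrogen starvation were 1.36 (interval 1.29 to 1.43) labelled tup11∆/tup12∆/php5∆ and 1.78 (interval 1.69 to 1.87) labelled tup11∆/tup12∆. Noncoding RNA genes on the opposite strand cover its coding sequence, and which strand the reads came from cannot be told apart.

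**Figure D5:**
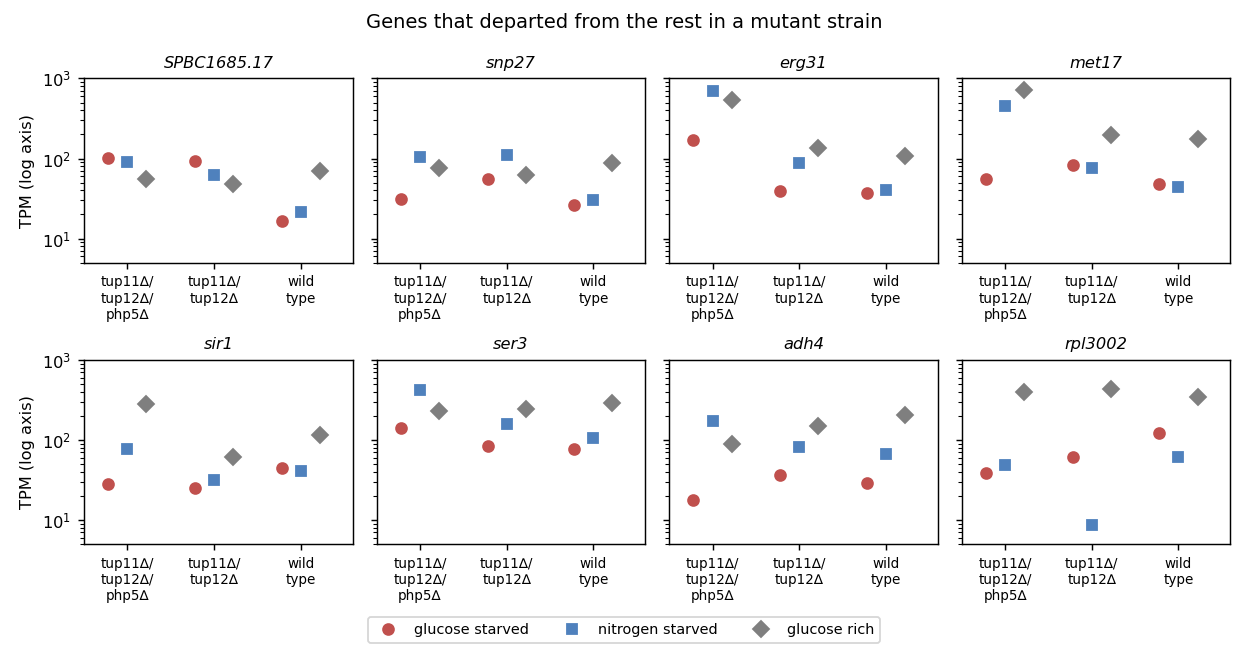
Levels (TPM, log axes) of 8 genes in the 9 libraries, by labelled strain, with 1 point per medium. SPBC1685.17 has its starved levels above the glucose rich one in both mutant strains, erg31 is highest in all media labelled tup11∆/tup12∆/php5∆, and rpl3002 is lowest, at 8.71 TPM, under nitrogen starvation labelled tup11∆/tup12∆.

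Under glucose starvation the gene that differed most between the mutants was rpb8, a subunit shared by the nuclear RNA polymerases. rpb8 had 9.06 TPM under glucose starvation and 70.7 TPM under nitrogen starvation, against 204 TPM in glucose rich medium, in the samples labelled tup11∆/tup12∆/php5∆. rpb8 in those labelled tup11∆/tup12∆ had 77.5 TPM under glucose starvation and 67.5 TPM under nitrogen starvation, against 303 TPM in glucose rich medium. Wild-type cells had 116 TPM under glucose starvation and 126 TPM under nitrogen starvation, against 346 TPM in glucose rich medium. The glucose-starved level labelled tup11∆/tup12∆/php5∆ came from 225 reads and was 0.117 (interval 0.101 to 0.135) times that labelled tup11∆/tup12∆, so that its starvation ratio, 0.0444 (interval 0.0387 to 0.0508), was the lowest under glucose starvation. Pho1, the secreted acid phosphatase, was higher labelled tup11∆/tup12∆/php5∆ there, at 141 TPM against 37 TPM, and overlaps an annotated noncoding RNA gene of the same strand.

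The libraries labelled tup11∆/tup12∆ were also set against wild-type cells, whose levels had been chosen high in glucose rich medium and low under starvation, so these ratios are a description. In glucose rich medium 138 of 145 genes were lower labelled tup11∆/tup12∆, against 72.9% of all features, with a median log2 ratio of -0.46 against -0.18. At or below 0.5 were 2 genes, against 1.74% of all, and 0 were at or above 2, against 3.77%. The lowest was the exosome helicase gene mtr4, at 26.4 TPM labelled tup11∆/tup12∆ against 58 TPM in wild-type cells. Under glucose starvation the median was -0.50, against -0.32 over all, with 7 genes at or below 0.5 (6.5% of all features) and 3 at or above 2 (4.79%). Under nitrogen starvation it was -0.23, against 0.02, with 1 gene at or below 0.5 (4.66%) and 4 at or above 2 (5.44%). With the rule applied to its own 3 libraries, tup11∆/tup12∆/php5∆ gave 55 genes, of which 40 are among the 145, and tup11∆/tup12∆ gave 120, of which 93 are. For scale, the 145 genes were taken from 5323 features.

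The 145 genes lay on chromosome I in 69 cases, on II in 59 and on III in 17. Their median length in the table was 1170 bases, against 936 bases for the other features at this level.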

How the data were processed

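The authors trimmed reads with fastp, mapped them to genome ASM294v2 with HISAT2, handled alignments with SAMtools, assigned the nonstrand-specific poly(A) reads to PomBase genes with featureCounts, and deposited TPM, with a length per feature as the other column. Options and versions are not given in the sources used here. Columns of per-sample values not used numbered 0. From the deposited TPM, whole reads were recovered as TPM times length divided by the smallest step of a library (100% of values within 0.01 of a whole number), and ratios of 2 libraries received exact Clopper-Pearson 95% intervals, which cover counting error only. Totals were 36652045 to 54303622 reads. With 1 library per group no model was fitted and no p-value is given. Backgrounds used features with at least 1 TPM in 1 library of the comparison, and their log2 medians a pseudocount of 1. A ratio of at most 0.4 was counted for starvation and 2-fold between strains. Names, products and promoter windows came from RefSeq on ASM294v3, and 5316 of 5323 features matched. For 111 of the 145 genes the coding ends in the table and annotation were equal. The table's build was not given here as a sequence.

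The members, classes and motif lists were chosen with earlier results of these data known. After their products were read, 6 symbols were dropped from the assembly lists. Named genes were, for classes with at least 5 members, the 3 with the lowest larger wild-type ratio and the highest expressed one, then the 4 highest and 2 lowest ratios of each mutant starvation comparison, the 3 highest and 3 lowest of each comparison between the mutants, genes next to the limits, polymerase I and snoRNP genes, and the targeted genes. Others were chosen after their values were seen. Alternatives were other scalings (size factors, upper quartile, without the 10 most abundant features), a pseudocount of 1, other level limits and other fold limits. Scripts were tested on simulated data and ran in Python 3.11.15 with numpy 2.4.6, pandas 2.3.3, scipy 1.17.1, biopython 1.88 and matplotlib 3.10.9.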

Additional observations from a re-analysis of the deposited data

Results flagged for a closer look

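Some genes moved in opposite directions under nitrogen starvation in the mutant strains, and none of these differences was tested, since each rests on 1 library per strain and medium. For adh4 the log2 ratio of nitrogen starved to glucose rich was 0.95 labelled tup11∆/tup12∆/php5∆ and -0.89 labelled tup11∆/tup12∆. The log2 ratio of tup11∆/tup12∆/php5∆ to tup11∆/tup12∆ for adh4 was below 0 in the other media and reached 1.08 under nitrogen starvation. For erg31 the nitrogen starvation log2 ratios were 0.38 labelled tup11∆/tup12∆/php5∆ and -0.58 labelled tup11∆/tup12∆. For ser3 they were 0.89 labelled tup11∆/tup12∆/php5∆ and -0.64 labelled tup11∆/tup12∆.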

How the results depend on the processing

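No paired analysis was possible because each strain and medium had 1 library, and leaving out a replicate was not possible for the same reason. The scaling moved several counts labelled tup11∆/tup12∆/php5∆. With median-of-ratios size factors 69 genes were at or below 0.4 under glucose starvation there and 84 under nitrogen starvation, and with a common upper quartile 92 were under nitrogen starvation and 71 under both. The rule itself took 193, 187 and 136 genes under size factors, the upper quartile and removal of the 10 most abundant features, of which 145, 145 and 135 are among those reported. With a ratio limit of 0.3 the rule took 65 genes. Of the 145, 12 and 12 were then at or below it labelled tup11∆/tup12∆/php5∆ under nitrogen starvation and both, and 81, 70 and 54 labelled tup11∆/tup12∆ under glucose starvation, nitrogen starvation and both. With a limit of 0.5, 93 and 91 were labelled tup11∆/tup12∆/php5∆ under nitrogen starvation and both.

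For tup11∆/tup12∆ against wild-type cells in glucose rich medium, the count past 2-fold, 2 as reported, was 0 with size factors, 0 with the upper quartile and 1 without the 10 most abundant features, 4 with level limits of 20 to 1000 TPM, 46 at 1.5-fold and 0 at 3-fold. Under glucose starvation, 10 as reported, it was 4, 5 and 6 with those scalings, 61 at 1.5-fold and 1 at 3-fold. Under nitrogen starvation, 5 as reported, it was 12 with the wider limits, 23 at 1.5-fold and 3 at 3-fold. For tup11∆/tup12∆/php5∆ against tup11∆/tup12∆ the counts were 8, 10 and 3 in glucose rich medium with the wider limits, at 1.5-fold and at 3-fold, against 5 as reported. Under glucose starvation they were 60 at 1.5-fold and 10 at 3-fold, against 26, and under nitrogen starvation 17, 39 and 4 with the wider limits, at 1.5-fold and at 3-fold, against 8. The causes of these shifts were not tested.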
